A study of Homo sapiens with 8 samples.

Results

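The genes described here carry the peptide display of the cell. They are HLA-B, HLA-C, HLA-E, B2M and TAP1 of the class I route and HLA-DRA, HLA-DMA, CD74 and CIITA of the class II route of the major histocompatibility complex. All probes of the array whose accession named 1 of these 9 genes were taken, which gave 14 probes of 41000. No probe of these genes was chosen by its signal, while the genes themselves were chosen with earlier results of these data known. All 14 were well above background in all 8 channels, and all 14 were kept by the filter on detection and dye consistency that left 22471 probes in all. HLA-E had 3 probes, HLA-B, HLA-DMA and CIITA had 2 each, and the other 5 genes had 1 each. 6 of the 9 genes (HLA-B, HLA-C, HLA-E, HLA-DRA, HLA-DMA and TAP1) lie on chromosome 6, where the complex is encoded. CD74 lies on chromosome 5, B2M on chromosome 15 and CIITA on chromosome 16.

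The cells were L1236, an established cell line from Hodgkin lymphoma, a lymphoma of B-cell origin. Cells had been transduced with the retroviral vector pMSCV-PIG, either empty (EV) or carrying a miR-155 sponge, a transcript with repeated miR-155 binding sites, and GFP+ cells were sorted in both cases. RNA was taken from the total lysate (T) or from an immunoprecipitate with an antibody against Argonaute 2 (IP), the protein that holds microRNAs and the transcripts paired with them. The 4 groups were therefore EV T, EV IP, sponge T and sponge IP, with 1 RNA sample in each, labelled once with Cy3 and once with Cy5. Everything in the dataset comes from a single line, and the antibody precipitates whatever Argonaute 2 holds, through any microRNA of these cells.

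On each array the IP and the T sample of the same cells were hybridised together. The ± values below are the SD over the 2 dye orientations for IP/T and its change, or over the 2 dyes for a difference within T or within IP. They hold labelling and hybridisation error. With 1 sample per group there is no replicate culture or precipitation, so no difference was tested and no p-value is given. Signals were set to a common distribution in every channel, so an IP/T ratio ranks a transcript against the rest of its fraction and is not the share of its molecules bound to Argonaute 2.

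Class I molecules consist of a heavy chain (HLA-B, HLA-C and HLA-E here) and the invariant light chain β2-microglobulin, the product of B2M. They show peptides from the cytosol to CD8+ T cells and are ligands of receptors on natural killer cells. Such peptides are cut by the proteasome and carried into the endoplasmic reticulum by the transporter of which TAP1 is a subunit. Class II molecules, such as the HLA-DR heterodimer with its α chain HLA-DRA, show peptides from endosomes to CD4+ T cells. CD74 is the invariant chain that fills the class II groove on the way to the endosome, HLA-DMA is a chain of the HLA-DM chaperone that exchanges the last invariant chain fragment for peptide, and CIITA is the transactivator on which transcription of the class II genes depends. Both routes are of interest in Hodgkin lymphoma, whose malignant cells sit among many T cells and often lose surface class I or class II.

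The microRNA bound by the sponge is shown first because its seed, bases 2 to 8 and here in capitals, is the stretch that pairs with targets. It is encoded at chr21:25573983-25574006 on the plus strand of GRCh38.p14.
hsa-miR-155-5p: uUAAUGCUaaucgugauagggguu
Sites for it in the transcripts of the 9 genes were not analysed here.

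The class I and class II genes are known to share promoter elements, so the RefSeq promoter windows of members are shown next to the values of genes that moved in one direction or apart. RefSeq held a window for 6 of the 9 genes (HLA-B, HLA-C, HLA-DMA, B2M, CD74 and TAP1). Capitals mark 3 short motifs, searched on both strands in the 250 bases before the start. These were ATTGG, read as CCAAT on the other strand and known as the Y box bound by NF-Y, TGACG, read as CGTCA and the core of the X2 box, and AANNGAAA, read as TTTCNNTT and the core of the interferon-stimulated response element. Among 34943 RefSeq windows of this length, 32.0% held the first motif, 21.2% the second and 20.3% the third, so that single matches are common. The 160 bases before the start are printed, in the direction of transcription. The letters are those of the reference genome, and the alleles of L1236 were not read. Windows lie on the minus strand for HLA-B (chr6:31357180-31357339), HLA-DMA (chr6:32953098-32953257), CD74 (chr5:150412911-150413070) and the first TAP1 start (chr6:32853705-32853864), and on the plus strand for B2M (chr15:44711357-44711516), all in GRCh38.p14.
HLA-B: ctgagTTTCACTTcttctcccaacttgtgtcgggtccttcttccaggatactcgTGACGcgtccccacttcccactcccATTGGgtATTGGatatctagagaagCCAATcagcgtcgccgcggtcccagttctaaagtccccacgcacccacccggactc
B2M: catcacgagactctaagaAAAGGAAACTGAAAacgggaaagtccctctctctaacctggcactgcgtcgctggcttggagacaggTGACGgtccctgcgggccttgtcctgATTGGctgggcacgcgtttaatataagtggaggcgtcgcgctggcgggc
TAP1: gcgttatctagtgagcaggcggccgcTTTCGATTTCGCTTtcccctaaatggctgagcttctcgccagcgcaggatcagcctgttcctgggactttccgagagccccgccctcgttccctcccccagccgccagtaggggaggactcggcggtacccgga
HLA-DMA: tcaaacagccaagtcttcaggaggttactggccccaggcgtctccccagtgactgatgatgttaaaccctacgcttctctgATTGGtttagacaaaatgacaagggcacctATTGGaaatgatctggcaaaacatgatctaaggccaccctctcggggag
CD74: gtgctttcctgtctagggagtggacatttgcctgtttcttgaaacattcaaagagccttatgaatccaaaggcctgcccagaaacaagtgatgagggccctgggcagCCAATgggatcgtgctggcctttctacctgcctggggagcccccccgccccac
All 3 motifs were found in the windows of HLA-B, HLA-C and B2M. HLA-DMA and CD74 held the Y box letters alone, with 2 matches in HLA-DMA and 1 in CD74. TAP1 held 2 overlapping matches of the interferon element core before its first start, as did B2M, and 1 match of the Y box letters upstream of the bases shown. The second TAP1 start held none of the 3 motifs. A match describes these letters only, and no binding was measured.

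Most of the antigen presentation transcripts were under-represented in the IP fraction of both cell populations, and B2M was the exception. In EV cells, the T signal was at least 2-fold above the IP signal for 9 of the 14 probes (64.3%), against 19.0% of all kept probes. These were the probes of HLA-B, HLA-C, HLA-E, HLA-DMA and CD74, with T/IP ratios from 2.07 to 3.49. In sponge cells the count was 7 of 14 against 17.8% of all kept probes. An IP/T ratio of 2 or more was found for 1 of 14 probes in each population, that of B2M, where all kept probes had 17.5% for EV and 17.5% for the sponge. By its mean, every other probe lay below an IP/T of 1 in EV cells, and so it did in sponge cells apart from CIITA A_23_P33384, whose ratio there was above 1 in both orientations and below it with Cy3 labels alone. The median log2 IP/T over the 14 probes was -1.14 for EV and -0.995 for the sponge, where the medians over all kept probes were -0.16 and -0.13.

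The counts past 2-fold depended on the processing. With normexp on median spot signals, loess and Aquantile in place of quantile-normalised processed signals, T/IP reached 2 for 4 of 14 probes with EV and for 1 of 14 with the sponge, against 5.13% and 4.67% of all kept probes. The 4 were HLA-B A_23_P125107, HLA-E A_24_P326082 and both probes of HLA-DMA, and the 1 was HLA-DMA A_23_P42306. The median over all kept probes moved to 0.01 under that setting, and the members' median lay 0.88 below it in EV cells, against 0.98 below with the processed signals. The sign of IP/T was the same for each of the 14 probes in EV cells under both. IP/T varied to a small extent with signal level among the kept probes. With the kept probes cut into 5 equal bins by mean signal, the median log2 IP/T with EV was -0.22 in the dimmest bin and -0.14 in the brightest, and with the sponge it rose from bin to bin, from -0.24 to -0.062. The share of probes with T/IP of 2 or more in EV cells also rose from bin to bin, from 15.5% to 20.8%. The brightest bin held 7 of the 14 members, and the part of signal level in the members' values was not tested.

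**Figure D1:**
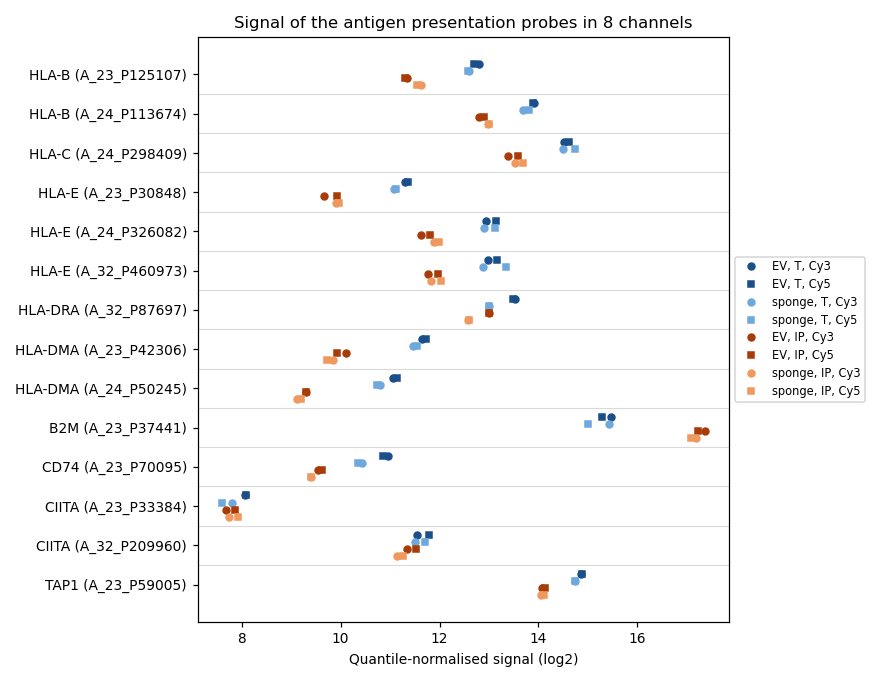
Quantile-normalised log2 signal of each of the 14 antigen presentation probes (rows) in the 8 channels, with T in blue, IP in orange, EV in dark and sponge in light colours, circles for Cy3 and squares for Cy5. The IP points lie left of the T points for the HLA probes, CD74 and TAP1 and right of them for B2M, and positions should be compared within a row only, since probes differ in how strongly they bind.

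Of the class I heavy chains, HLA-B presents peptides to CD8+ T cells and was measured by 2 probes. HLA-B A_23_P125107 had log2 signals in Cy3 and Cy5 of 12.80 and 12.70 in EV T, 12.60 and 12.59 in sponge T, 11.34 and 11.30 in EV IP, and 11.62 and 11.54 in sponge IP. No group overlapped another, and the distance between T and IP was shorter in sponge cells, where T was lower and IP higher. T was above IP by 2.69-fold with EV and 2.01-fold with the sponge, that is -1.43 ± 0.10 and -1.01 ± 0.06 as log2 IP/T. HLA-B A_24_P113674 had 13.92 and 13.89 in EV T, 13.69 and 13.80 in sponge T, 12.80 and 12.90 in EV IP, and 12.99 and 13.002 in sponge IP. The order of the 4 groups was the same as for the first probe, again without overlap, and log2 IP/T rose from -1.05 ± 0.05 with the empty vector to -0.75 ± 0.09 with the sponge. Its T/IP of 1.69 in sponge cells put this probe below the 2-fold line there.

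HLA-C, a heavy chain that is also a main ligand of the killer cell immunoglobulin-like receptors, was measured by HLA-C A_24_P298409. Its log2 signal was 14.52 and 14.62 in EV T, 14.50 and 14.74 in sponge T, 13.38 and 13.59 in EV IP, and 13.52 and 13.69 in sponge IP. Both T groups lay above both IP groups, while EV and sponge overlapped within T and within IP. The ratio T/IP was 2.12 with the empty vector and 2.01 with the sponge, so that the sponge value lay at the 2-fold line, and the SD of log2 IP/T was 0.21 and 0.29.

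HLA-E, which shows leader peptides of other class I chains to the CD94/NKG2A receptor of natural killer cells, had 3 probes. HLA-E A_23_P30848 gave 11.30 and 11.36 in EV T, 11.08 and 11.12 in sponge T, 9.67 and 9.92 in EV IP, and 9.91 and 9.97 in sponge IP. HLA-E A_24_P326082 gave 12.95 and 13.14 in EV T, 12.90 and 13.12 in sponge T, 11.62 and 11.81 in EV IP, and 11.88 and 11.98 in sponge IP. HLA-E A_32_P460973 gave 12.98 and 13.17 in EV T, 12.88 and 13.35 in sponge T, 11.77 and 11.97 in EV IP, and 11.84 and 12.04 in sponge IP. For all 3 probes every T channel lay above every IP channel, and the overlap between EV and sponge differed by probe. In T only A_23_P30848 separated the populations, and in IP only A_24_P326082 did. Log2 IP/T in EV cells was -1.53 ± 0.22, -1.33 ± 0.27 and -1.20 ± 0.28 for the 3 probes in that order, and in sponge cells -1.16 ± 0.07, -1.08 ± 0.23 and -1.17 ± 0.47. The range over the probes (0.34 with EV, 0.10 with the sponge) was of the size of the spread between orientations. Class I heavy chains are near-identical in much of their sequence, and the probes' own sequences were not used here, so signal from a related chain cannot be told apart from signal of the named gene.

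B2M, the light chain shared by all class I molecules, stood apart from its heavy chains. B2M A_23_P37441 had log2 signals of 15.47 and 15.28 in EV T, 15.43 and 15.01 in sponge T, 17.37 and 17.23 in EV IP, and 17.19 and 17.08 in sponge IP. Every IP channel lay above every T channel. IP exceeded T by 3.79-fold with EV and 3.77-fold with the sponge, log2 values of 1.92 ± 0.24 and 1.91 ± 0.38, and the change between the populations (-0.01 ± 0.14) was within the spread between orientations. This is the member with the most measurements, since its probe was printed at 10 places of each array. Within a channel the 10 spots had an SD of 0.04 to 0.11 on the log2 scale, none was saturated and none was left out. The direction and the 2-fold call of B2M were the same under each alternative that was run.

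TAP1, a subunit of the peptide transporter, lay between B2M and the heavy chains. TAP1 A_23_P59005 had 14.86 and 14.88 in EV T, 14.74 and 14.75 in sponge T, 14.06 and 14.14 in EV IP, and 14.05 and 14.11 in sponge IP. T was above IP by 1.70-fold with EV and 1.58-fold with the sponge, short of 2-fold in both, with SDs of log2 IP/T of 0.07 and 0.04.

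Among the class II genes, HLA-DMA had IP/T ratios below those of the other 8 genes with the processed signals, an order that was not kept under normexp. HLA-DMA A_23_P42306 gave 11.65 and 11.72 in EV T, 11.47 and 11.55 in sponge T, 10.11 and 9.94 in EV IP, and 9.84 and 9.72 in sponge IP. HLA-DMA A_24_P50245 gave 11.06 and 11.14 in EV T, 10.79 and 10.73 in sponge T, 9.29 and 9.30 in EV IP, and 9.12 and 9.21 in sponge IP. Both probes put EV T highest and sponge IP lowest, with no overlap between any of the 4 groups. T exceeded IP by 3.16-fold and 3.49-fold in EV cells and by 3.32-fold and 3.02-fold in sponge cells. Under normexp the log2 IP/T of the 2 probes moved to -1.13 and -1.05 with EV and to -1.06 and -0.765 with the sponge, so that A_24_P50245 fell short of 2-fold there, and HLA-B A_23_P125107 (-1.17) was lowest with EV.

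CD74, the invariant chain, was measured by CD74 A_23_P70095 at 10.96 and 10.86 in EV T, 10.43 and 10.35 in sponge T, 9.55 and 9.63 in EV IP, and 9.41 and 9.41 in sponge IP. The populations were separated in both fractions, more widely in T than in IP. Log2 IP/T went from -1.32 ± 0.02 with EV to -0.98 ± 0.05 with the sponge, and T/IP fell from 2.50 to 1.97, from above to just below the 2-fold line. Under normexp its log2 IP/T was -0.73 and -0.31, short of 2-fold in both.

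HLA-DRA, the α chain of HLA-DR, was nearer to even between the fractions. HLA-DRA A_32_P87697 had 13.52 and 13.49 in EV T, 13 and 13.004 in sponge T, 12.997 and 13.005 in EV IP, and 12.58 and 12.59 in sponge IP. Sponge T and EV IP were at the same level, with EV T above and sponge IP below them. T exceeded IP by 1.42-fold with EV and 1.34-fold with the sponge, with SDs of log2 IP/T of 0.02 and 0.01.

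CIITA, the transcriptional co-activator of the class II genes, was the member closest to even, and its probes disagreed in the sign of the change in IP/T, as did those of HLA-DMA. CIITA A_23_P33384 was the dimmest of the 14 probes, with 22.9% of the kept probes below it in mean signal. It gave 8.07 and 8.10 in EV T, 7.80 and 7.60 in sponge T, 7.69 and 7.88 in EV IP, and 7.75 and 7.92 in sponge IP. CIITA A_32_P209960 gave 11.55 and 11.79 in EV T, 11.49 and 11.70 in sponge T, 11.34 and 11.52 in EV IP, and 11.14 and 11.27 in sponge IP. The first separated EV from sponge in T and not in IP, and the second did so in IP and not in T. Log2 IP/T of the first went from -0.31 ± 0.15 with EV to 0.13 ± 0.02 with the sponge, and of the second from -0.24 ± 0.29 to -0.39 ± 0.24. Their changes between the populations, 0.44 ± 0.17 and -0.16 ± 0.05, had opposite signs, so no direction can be given for CIITA in IP/T. Which part of the transcript each probe covers was not used here.

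**Figure D2:**
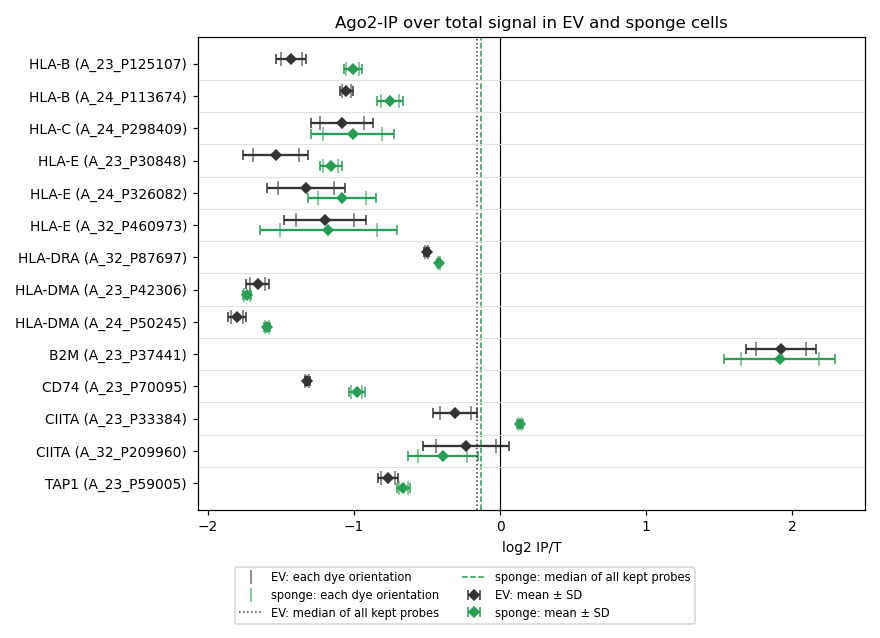
Log2 IP/T of each of the 14 probes in EV (dark) and sponge (green) cells, with the mean and SD over the 2 dye orientations, a tick for each orientation, and the medians of all kept probes as broken lines. B2M lies near 1.9 in both populations, HLA-DMA between -1.80 and -1.60, and the 2 CIITA probes on either side of each other in sponge cells.

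Between sponge and EV cells the differences were small for every member, and class II transcripts were lower in T. No probe differed by 2-fold or more in T, in IP or in IP/T (0 of 14 each), where 0.258% of all kept probes were at least 2-fold lower and 0.151% at least 2-fold higher in sponge T, 0.151% differed by 2-fold in IP and 0.312% in IP/T. In T, 12 of the 14 probes were lower in sponge cells with both dyes, against 33.4% of all kept probes, and none was higher with both dyes, against 28.7%. In bulk RNA, a lower signal can stand for fewer cells that carry a transcript or for less of it per cell, and these cannot be told apart. All 6 class II probes were among those lower, and 6 of the 8 class I probes. The other 2, HLA-C and HLA-E A_32_P460973, differed in sign between the dyes.

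The class II members had a median log2 difference in T of -0.36 and the class I members one of -0.14, where all kept probes had -0.01 on the median. CD74 fell by 0.52 ± 0.02 and HLA-DRA by 0.50 ± 0.03 in T, to 0.697 and 0.707 of the EV level. For CIITA the 2 probes gave -0.39 ± 0.15 and -0.07 ± 0.02. HLA-DMA gave -0.17 ± 0.01 and -0.34 ± 0.10. Both probes of a gene thus had the same sign in T, with sizes that differed between probes by more than the spread between dyes. In class I, the HLA-B probes lay at -0.16 ± 0.06 and -0.16 ± 0.10, TAP1 at -0.12 ± 0.01 and B2M at -0.16 ± 0.16, and the HLA-E probes ranged from -0.23 to 0.04.

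In the IP fraction the class I heavy chains pointed in one direction and most other members, of both routes, in the other. All 6 heavy chain probes (HLA-B, HLA-C and HLA-E) were higher in sponge IP with both dyes, against 37.9% of all kept probes, at 0.06 to 0.26 on the log2 scale. Probes of these related chains may share signal, so they cannot be counted as 6 separate measurements. B2M (-0.17 ± 0.02) and TAP1 (-0.02 ± 0.01) were lower with both dyes. So were 5 of the 6 class II probes, which made 7 of the 14 members lower, against 35.7% of all kept probes. The largest difference was that of HLA-DRA, which fell by 0.42 with both dyes, followed by HLA-DMA A_23_P42306 (-0.24 ± 0.04), CIITA A_32_P209960 (-0.23 ± 0.03) and CD74 (-0.18 ± 0.05). CIITA A_23_P33384 was higher by 0.05 ± 0.02. The median over the class I members was 0.13 and over the class II members -0.20, while that of all kept probes was 0.01. The grouping of members into routes follows textbook function and was made with these values known, and the difference between the routes was not tested.

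**Figure D3:**
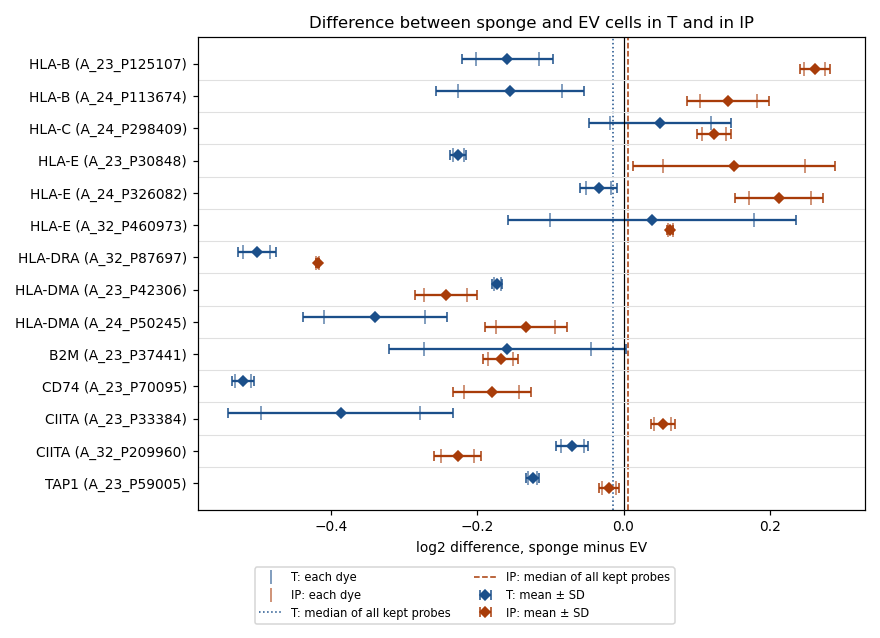
Log2 difference between sponge and EV cells for each of the 14 probes in T (blue) and in IP (orange), with the mean and SD over the 2 dyes, a tick for each dye, and the medians of all kept probes as broken lines. In IP the HLA-B, HLA-C and HLA-E probes lie right of 0 and HLA-DRA lies at -0.42, while in T most probes lie left of 0.

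As a consequence of these shifts, IP/T was higher in sponge than in EV cells in both orientations for 10 of the 14 probes, against 35.1% of all kept probes, and lower in both for 2, against 28.8%. The highest values were those of CIITA A_23_P33384 (0.44 ± 0.17), HLA-B A_23_P125107 (0.42 ± 0.04), HLA-E A_23_P30848 (0.38 ± 0.15) and CD74 (0.34 ± 0.04). For HLA-B the 2 probes gave 0.42 and 0.30, and for HLA-E the 3 probes gave from 0.03 to 0.38. HLA-DRA changed by 0.08 ± 0.03, as its signal was lower in T and in IP by a similar amount. The 2 probes with lower ratios were CIITA A_32_P209960 and HLA-DMA A_23_P42306 (-0.07 ± 0.05), and in both genes the other probe had the opposite sign. For HLA-C, HLA-DRA and HLA-DMA A_23_P42306 the sign of the change was also lost under normexp.

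The study's own criterion for a miR-155 target asks for enrichment in the IP fraction of EV cells with a ratio at least 2-fold lower under the sponge. B2M was the only member to meet the first part, and its ratio in sponge cells was the same within error, so none of the 14 probes met both. Of all kept probes, 0.312% differed by 2-fold or more in IP/T between the populations, in either direction. The study itself found few probes in L1236 that met both parts, and proposed that the sponge left part of the miR-155 unbound. Whether the 9 genes are miR-155 targets was therefore not tested by this count.

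The other genes of antigen presentation were read from lists written from textbook knowledge, 48 genes in 6 groups with 71 kept probes, and 5 CD1 genes of lipid presentation, none of whose 8 probes was kept. Over the 71 probes the median log2 IP/T in EV cells was -0.61, with 17 probes (23.9%) at T/IP of 2 or more and 14 (19.7%) at IP/T of 2 or more, near the 19.0% and 17.5% of all kept probes. The group of further class I heavy chains resembled HLA-B, HLA-C and HLA-E, apart from MR1, which was nearer to even (-0.76 ± 0.14 and -0.30 ± 0.04 in EV cells). HLA-F had -1.34 ± 0.14 and -1.33 ± 0.21 by its 2 probes, and the 7 kept probes of this group had a median of -1.33. Under normexp 6 of the 7 lay below 0 and the other at 0.003. Of the 2 HLA-G probes, A_24_P311926 was well above background in all 8 channels and had -1.10 ± 0.50, while A_23_P300112 was not well above background in any. Signal of a related chain in the brighter HLA-G probe cannot be told apart from that of HLA-G. All 7 kept probes of these further heavy chains were higher in sponge IP with both dyes, against 37.9% of all kept probes. The differences ran from 0.08 to 0.31, with HLA-F at 0.16 ± 0.13 and 0.20 ± 0.10 by its 2 probes. These probes too may share signal and cannot be counted as 7 separate measurements.

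In the chaperones and trimming enzymes of the class I route, IP/T differed by gene. Calnexin (CANX, 1.48 ± 0.10) and calreticulin (CALR, 1.29 ± 0.14), lectin chaperones that fold the heavy chain and many other glycoproteins, had IP above T by over 2-fold with EV. The tapasin-related TAPBPL (-1.43 ± 0.33) was depleted, and so was TAP2, the partner of TAP1, with -0.97 ± 0.13 for EV and -1.51 ± 0.59 for the sponge by A_23_P214444. The aminopeptidase ERAP1, by A_23_P167452, was not well above background in T of sponge cells. Its IP signal there was at least 1.12-fold above T, and its T signal in EV cells at least 1.07-fold above that in sponge cells. The 6 probes of the immunoproteasome, which cuts peptides for class I, and of its activator (PSME1 and PSME2) lay below 0 in both populations. The share of all kept probes below 0 was not computed, and their medians were -0.16 with EV and -0.13 with the sponge. T/IP reached 2 for 3 of the 6 with EV and 1 of the 6 with the sponge, against 19.0% and 17.8% of all kept probes. In EV cells PSME1 had -1.90 ± 0.32 by A_23_P151614 and -0.79 ± 0.11 by A_23_P151610, PSMB9 -1.10 ± 0.02 and PSME2 -1.07 ± 0.17.

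The other class II chains added to the pattern of HLA-DRA. All 14 kept probes of the DR, DP and DQ chains were lower in sponge cells with both dyes in T, from -0.61 to -0.18 and against 33.4% of all kept probes, and in IP, from -0.57 to -0.12 and against 35.7%. Under normexp 13 of the 14 lay below 0 in T and 14 in IP. Their IP/T was split by gene, with HLA-DQA1 and HLA-DQA2, α chains of HLA-DQ type, higher in IP than in T by all 4 probes (1.28 to 1.88 in EV cells, and 0.54 to 1.79 under normexp), and HLA-DQB1, the β chain that pairs with HLA-DQA1, depleted (-1.59 ± 0.20). The probes of HLA-DQA1 and HLA-DQA2 may share signal, since these genes are near-identical in sequence. So may those of HLA-DRB1, HLA-DRB3, HLA-DRB4 and HLA-DRB5, whose differences in T lay between -0.24 and -0.19. The 14 probes can therefore not be counted as 14 separate measurements. HLA-DMB, which forms HLA-DM with HLA-DMA, had an IP/T in EV cells of -1.19 ± 0.33 and was lower in sponge T by 0.24 ± 0.01. HLA-DOA, a chain of the inhibitor HLA-DO, had -1.21 ± 0.08 in EV cells by A_32_P356316. Its other kept probes gave -0.84 ± 0.19 (A_24_P354800), short of 2-fold, and -1.07 ± 0.20 (A_23_P30927, well above background in 4 of 8 channels). The lysosomal thiol reductase IFI30, at 1.04 ± 0.16 in EV cells, was the highest in this group of loading factors and not the only one above 0. Between sponge and EV cells the loading genes had no common direction in IP. With both dyes, 5 of the 12 kept class II loading probes were lower and 5 higher. Of the 13 kept class I loading probes, 5 were lower and 4 higher, where all kept probes had 35.7% lower and 37.9% higher.

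**Figure D4:**
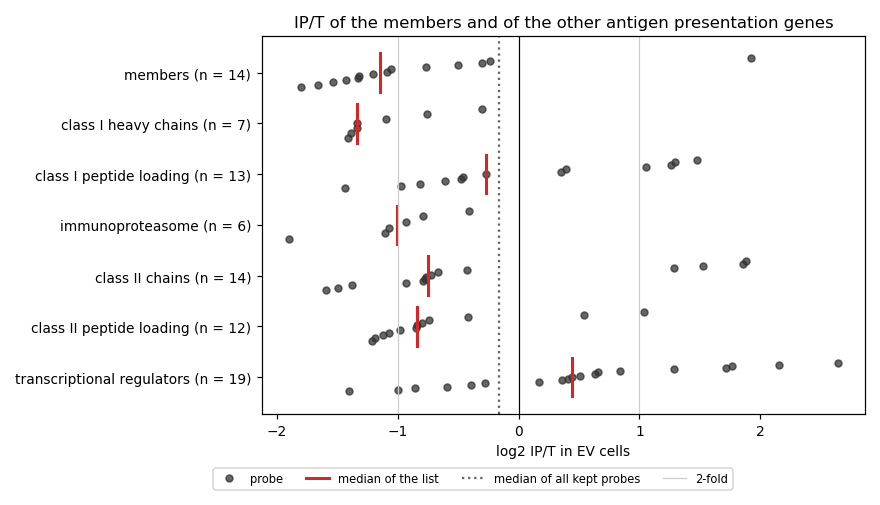
Log2 IP/T in EV cells of the 14 member probes and of the kept probes of 6 further gene lists, with a red line at each list's median, a dotted line at the median of all kept probes and grey lines at 2-fold. The class I heavy chains lie below 0, where normexp puts 1 of the 7 probes at 0.003, the immunoproteasome lies below 0 under both, and the transcriptional regulators have a median of 0.44.

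The regulators that act on these promoters lay on the other side. Over 19 kept probes of 11 genes the median log2 IP/T in EV cells was 0.44. IRF1, an interferon-induced activator of class I genes, had 2.16 ± 0.06 with EV and 2.19 ± 0.19 with the sponge. IRF2 had 1.77 ± 0.02 by A_23_P136478 in EV cells. NFYC, a subunit of the NF-Y factor that binds the Y box printed above, had 2.64 ± 0.36 by A_24_P165346 and 0.63 ± 0.05 by A_23_P22994, so its probes agreed in sign and not in size. RFXANK, of the RFX complex that binds next to NF-Y on class II promoters, was depleted (-1.40 ± 0.01). NLRC5, the class I counterpart of CIITA, lay between -0.999 and -0.39 by its 3 probes.

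**Figure D5:**
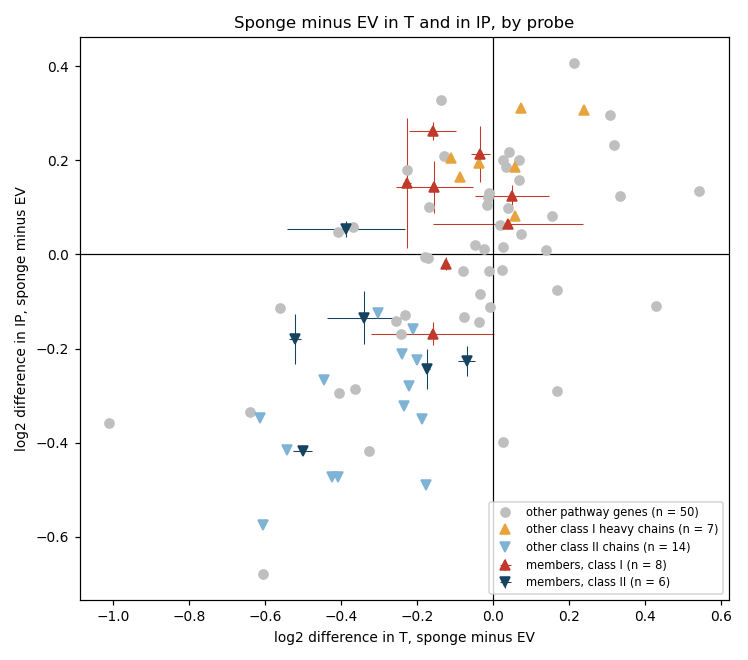
Log2 difference between sponge and EV cells in T (horizontal) against that in IP (vertical) for the 14 members (red, class I, and dark blue, class II, with SD over the 2 dyes), the other heavy chains, the other class II chains and the other pathway genes. The class II chains lie at the lower left, below 0 on both axes, and the class I heavy chains lie above 0 on the vertical axis.

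The label of the cells was checked against markers. All 6 Hodgkin cell genes (TNFRSF8, FSCN1, CCL17, TRAF1, IRF4 and JUNB) were well above background in all 8 channels, as were CD79A and CD79B of the B-cell list, while MS4A1 and CD22 were so in none. None of the 7 T-cell probes was kept. CD3D and CD3G were well above background in no channel, while 1 of the 2 CD3E probes was so in all 8 and CD2 and CD8A in 7, and these were left out for their dye difference. Of the 6 myeloid genes LYZ and CD163 were well above background in none and CD14, CSF1R and ITGAM in all. The part of such transcripts in the members' values was not tested. Sponge T labelled with Cy5 was the channel with the fewest spots flagged as well above background.

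By the rule for likeness of pattern, RPL21, DDX46, FCRLB and DDX23 were among the 5 genes whose 4 sample means lay nearest to the members' median pattern, out of 10302 genes. The distances of the 5, over 4 RNA samples and after each probe was centred on its own mean, were 0.02 to 0.03 on the log2 scale. With 4 points per gene such a match is loose. DDX46, for example, had log2 ratios of -1.12 with EV and -0.94 with the sponge, against members' medians of -1.14 and -0.995.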

How the data were processed

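RNA of 4 samples was measured in both dyes on 4 Agilent 2-colour arrays of 1 slide. Per the file headers, the authors extracted spot intensity values with Agilent Feature Extraction 10.7.3.1 (the submitters' processing notes give 10.5.1.1), background-subtracted and dye-normalised. The 8 deposited files are 4 distinct arrays, each under both of its samples, and the channel of a sample's own dye was read. The deposited series table holds the authors' log2 values of 22282 probes, with all 14 member probes. Their rank order equalled that of the values used here (Spearman's rho 1 across probes) and the median distance was at most 0.00302. The table served as an alternative.

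Control spots and outlier-flagged spots were left out, spots of a probe averaged, and log2 processed signals quantile normalised over 8 channels (R 4.3.3, limma 3.58.1, Python 3.11.15), following the study's methods. Probes were kept if well above background in at least 4 of 8 channels (25827), with Cy3 and Cy5 within 2-fold in each sample, which removed 3356. A probe with several spots counts as well above background in a channel if no fewer of them were flagged so than not. For "at least N-fold", a dim group was set, channel by channel, to the dimmest signal that any detected probe had, or to its own where that was higher, after normexp (offset 50), loess and Aquantile. The files used here hold median spot signals, so normexp ran on medians and not, as first planned, on means. The steps were tested on simulated data. No p-value or interval was computed for lack of replicate samples. The precision is limited by the number of arrays.

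Accessions were named through RefSeq of GRCh38.p14 (23958 of 41000 probes), used for names and promoter windows. The array design follows another build, so no probe coordinates are given. The members and lists were chosen with earlier results of these data known. Beyond the members, at most 3 genes per list and comparison were named, those furthest past 2-fold, or up to 2 nearest the list's median where none was; other names in the text are second probes or partners of these, chosen after their values were seen.

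Alternatives were normexp, scaling to the 75th percentile, the authors' table, single dyes, single orientations, other detection filters, no dye filter, and 1 probe a gene. Some genes of the lists are not reported here by name.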

Additional observations from a re-analysis of the deposited data

Results flagged for a closer look

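The difference between sponge and EV cells had opposite signs in IP and in T, with both dyes in each, for 5 of the 14 probes. The share of all kept probes with such opposite signs was not computed, so the count cannot be called particular to the members. HLA-B A_23_P125107 was higher by 0.262 in IP and lower in T (-0.159), HLA-B A_24_P113674 higher by 0.143 and lower (-0.155), HLA-E A_23_P30848 higher by 0.151 and lower (-0.226), HLA-E A_24_P326082 higher by 0.213 and lower (-0.034), and CIITA A_23_P33384 higher by 0.054 and lower (-0.387). CIITA A_23_P33384 also had a log2 IP/T of 0.135 in sponge cells against -0.306 in EV cells, with both orientations on the same side in each. None of these differences was tested, since each group holds 1 RNA sample.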

How the results depend on the processing

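No paired analysis was possible because each group holds 1 RNA sample, whose numbered repeats are its Cy3 and Cy5 labellings. Over the 14 probes and 5 values, 61 of 70 probe values kept their sign under each alternative run, and 4 of the 9 that turned had differed in sign between dyes or orientations from the start (HLA-C and HLA-E A_32_P460973 in T, HLA-E A_32_P460973 and B2M in the change in IP/T). The cause of the changes listed here was not tested. Under normexp, loess and Aquantile the median log2 IP/T moved to -0.870 over the members, -0.899 over class I and -0.538 over class II with EV, and to -0.632, -0.776 and -0.327 with the sponge. The median difference in T moved to -0.100 over the members and -0.182 over class II, that in IP to 0.081 over class I and -0.042 over class II, and the change in IP/T to 0.101 over the members and 0.102 over class I. T/IP of 2 or more was then counted for 4 probes with EV and 1 with the sponge. Signs turned under normexp for the change in IP/T of HLA-C (-0.003), HLA-DRA (-0.003) and HLA-DMA A_23_P42306 (0.071), and for HLA-DMA A_24_P50245 in IP (0.048). With a single dye, class II in T ranged from -0.446 to -0.275, class I in IP from 0.082 to 0.161, and the change in IP/T from 0.155 to 0.238 over class I and from 0.098 to 0.179 over class II. With Cy5 alone HLA-C changed by -0.011 in IP/T and with Cy3 alone by 0.159, and CIITA A_23_P33384 had a log2 IP/T with the sponge of -0.047 with Cy3 alone and 0.317 with Cy5 alone. On the arrays with IP in Cy5 the median IP/T was -1.011 with EV and -0.825 with the sponge over the members, and -0.825 with the sponge over class I, while class II in T was -0.275 and class I in IP 0.082. On the arrays with IP in Cy3 the members' median with EV was -1.272, class II with the sponge -0.752, class II in T -0.446 and class I in IP 0.161. With 1 probe a gene, which leaves 9 probes, the sponge medians of IP/T were -0.754 over the members and -0.754 over class I, class II in T was -0.337, class I in IP 0.064, the members' median in IP turned from 0.017 to -0.168, and the change in IP/T was 0.074 over the members, 0.074 over class I and 0.006 over class II. T/IP of 2 or more was then counted for 5 genes with EV and 3 with the sponge, and 7 were lower in sponge T. Scaling to the 75th percentile, the authors' table, the other detection filters and no dye filter moved none of the medians and counts beyond the spread of a probe between its repeats, or, for counts, beyond 1.5 times. All member probes were well above background in every channel, so that the spread between dyes limits the small differences, and CIITA A_23_P33384 is the dimmest. No setting stands in for another culture or precipitation.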
